A study of Mus musculus with 27 samples.

Results

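The comparison of primed Zfp512b KO clone #4 (KO4) with primed WT cells covered 10926 genes, chosen from 25209 listed genes by a base mean (the normalised read count averaged over the 4 libraries compared) of 50 or more. Both groups had 2 libraries of RNA from V6.5, a male mouse embryonic stem cell (mESC) line. The cells had been moved from medium that holds them in the naïve state into a serum medium that still contained LIF, and were collected after 2 days. KO4 is 1 clone with a triple transcriptional terminator placed behind exon 3 of Zfp512b on both alleles, together with an mCherry or a puromycin resistance gene, whereas the WT cells were not taken through editing and selection. A change between the groups therefore cannot be told apart from a difference between this clone and the parental cells. Clone #8 (KO8), made in the same way and also represented by 2 primed libraries, was used as a second clone.

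Zfp512b (ZNF512B in human) encodes a zinc finger protein that binds DNA and the nucleosome remodelling and deacetylase complex NuRD, and it has been described on the mitotic spindle. In mESCs, the step from the naïve to the primed state lowers genes such as Prdm14 and Tbx3 and raises epiblast genes. Imprinted genes are transcribed from the maternal or the paternal copy alone, and a small share of mESCs at any time expresses genes of the 2-cell embryo such as the Zscan4 family.

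The read numbers of the single libraries were recovered from the base means, which are sums of whole reads each divided by a size factor. This gave 1 solution for 6922 of the 10926 genes (63.4%), the only ones tested. The 3982 genes with a base mean of 1000 or more (36.4%) could not be resolved and 22 others had several solutions or none. The libraries held about 18.2 and 17.3 M reads on genes in WT and 17.0 and 16.8 M in KO4. All values per library below are reads divided by the size factor of the library, fold changes are KO4 over WT on the scale of log2(value + 1), and a gene was called at an adjusted p under 0.05 in limma, adjusted over all 9220 fitted genes, which had base means from 10 to 1000. The labels do not say whether replicates came from separate cultures, so p-values measure only the spread between these libraries, which may be technical. The base mean averages both groups, so a gene can pass 50 through the group in which it is high. Of the called genes, 34 higher and 56 lower ones had a mean under 50 in 1 group. Sema4f and Anxa3, just below the limit of 50, had base means of 49.96 and 49.98 and log2 fold changes of 0.71 and -0.15, and Col11a1 and Apoo, just above it, had base means of 50.07 and 50.10 and log2 fold changes of -0.41 and 0.47. All 12 markers of mESCs had base means of 1000 or more, among them Pou5f1 (20420), Sox2 (11344) and Nanog (5127.5), and so were expressed in these libraries, but whether they differed between the groups was not tested.

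The targeted gene was checked first. Zfp512b lies at chr2:181316808-181327508 (mm9, minus strand), and its exon 3, a coding exon of 143 bases at chr2:181325175-181325317, is printed because the terminator was placed behind it. The last 10 bases of the exon are in capitals.
Zfp512b exon 3: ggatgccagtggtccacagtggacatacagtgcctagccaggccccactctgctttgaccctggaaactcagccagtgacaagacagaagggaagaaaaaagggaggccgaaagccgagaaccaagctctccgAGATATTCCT

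Zfp512b read 929 and 977 in the WT libraries and 191 and 219 in the KO4 libraries. It fell by 2.21 on the log2 scale (SE 0.10, adjusted p = 1.98e-20), to 0.215 of the WT level, so that transcript was still counted on the gene in both KO4 libraries. KO8 read 184 and 154, and KO4 did not pass the test against KO8 (log2 difference 0.28, adjusted p = 0.45). Its paralogue Zfp512 had a base mean of 1062 and was not resolved.

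Among the 6922 genes tested, 669 were higher and 926 lower in KO4. Over all 9220 genes in the fit, 7.98% were higher and 11.5% lower, and over the 6922 genes these shares were 9.66% and 13.4%. Most changes were small, with a median of 0.47 for the higher and -0.49 for the lower genes on the log2 scale. A log2 change of 1 or more was reached by 44 higher and 79 lower genes. The split between the directions depended on the scaling: with trimmed means of M values in place of the deposited size factors 809 genes were higher and 749 lower, or 51.9% against 41.9% of the called genes higher. Without the lower limit of the base mean in the fit 217 and 268 were called, and without WT library B 443 and 516. Of the higher genes, 222 (33.2%) lie on chromosome 8, compared with 7 of the lower genes.

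**Figure D1:**
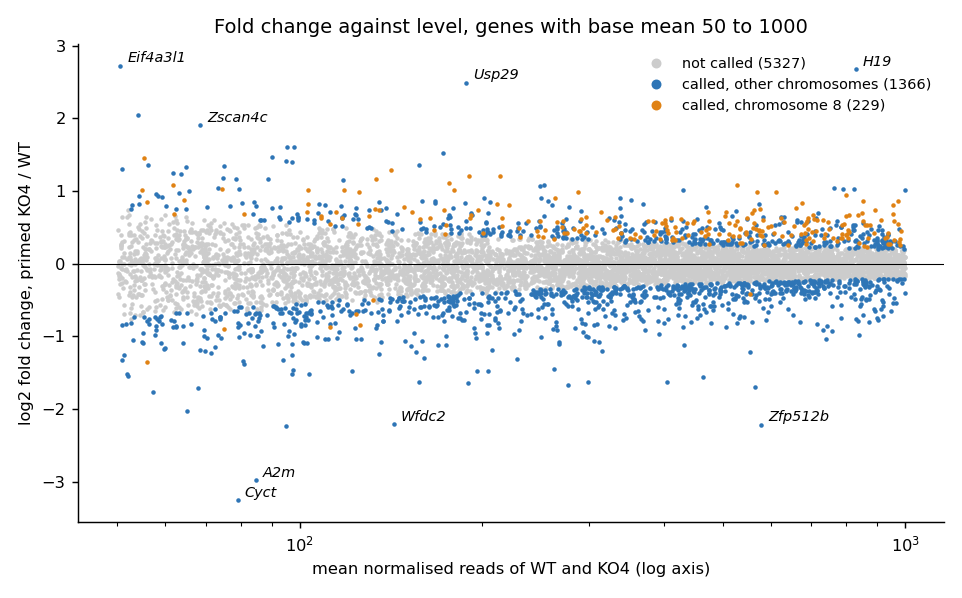
Log2 fold change of primed KO4 over primed WT (vertical axis) against the mean of both groups in normalised reads (horizontal, log axis) for 6922 genes. Grey points were not called, blue points were called on other chromosomes and orange points on chromosome 8. The orange points sit almost all above 0, while Cyct, A2m and Ndufa4l2 lie lowest, followed by Zfp512b, and Eif4a3l1, H19 and Usp29 lie highest.

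Chromosome 8 stood apart as a whole. Of its 352 tested genes 222 (63.1%) were higher and 7 lower, and its median log2 fold change was 0.41, or 0.44 above the median of all members, a factor of 1.36. No other autosome nor the X chromosome had a median beyond -0.09 to 0.03, and chromosome Y had 0.53 over 3 tested genes. The shift was present along the whole chromosome, with medians between 0.33 and 0.43 in 7 windows of 20 Mb. The genes with the smallest p there were Arl2bp (552 and 537 in WT, 1036 and 1064 in KO4), which binds the ARL2 GTPase, Tbc1d9 (348 and 326 against 720 and 716), a Rab regulator, and Galnt7 (425 and 395 against 829 and 802), a glycosyltransferase that starts O-linked sugar chains. In all of them the KO4 libraries lay above both WT libraries, with log2 fold changes of 0.95, 1.09 and 0.99. Against the shift, Plekha2 fell (640 and 628 in WT, 453 and 494 in KO4) and read 801 and 701 in KO8. KO8 had a median of 0.43 over the same genes of chromosome 8, measured against the same WT libraries. The copy number of chromosome 8 was not measured, and its part in these values was not tested. Because of this shift, the counts of gene lists whose called members include genes of chromosome 8 are also given without them.

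**Figure D2:**
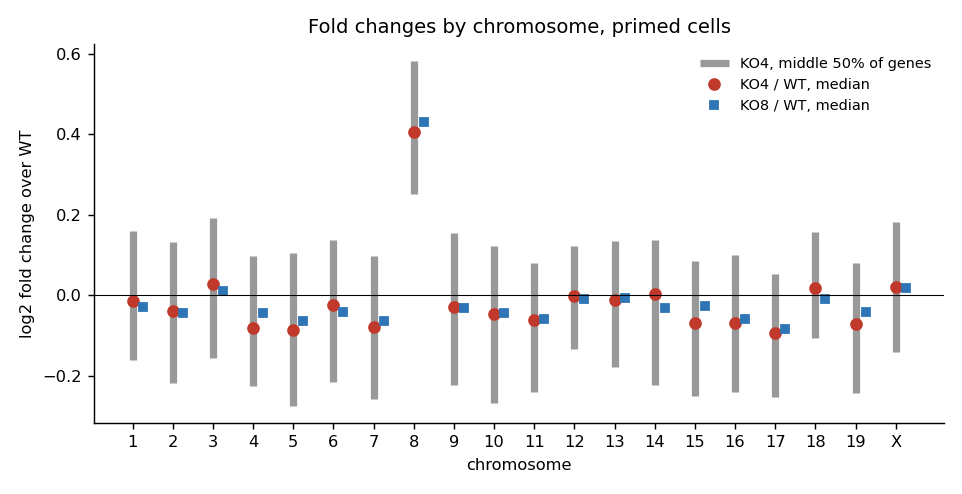
Median log2 fold change over WT (vertical axis) of the tested genes of each chromosome (horizontal axis) in primed KO4 (red circles) and KO8 (blue squares), with grey bars for the middle 50% of genes in KO4. Chromosome 8 is at 0.41 in KO4, and the other autosomes and the X chromosome lie between -0.09 and 0.03. Chromosome Y, with 3 tested genes, is not drawn.

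Imprinted genes were among the largest increases outside chromosome 8. Of the 24 tested genes of the imprinted list 10 were higher (41.7%) and 4 lower (16.7%), compared with 9.66% and 13.4% of all members, and none lies on chromosome 8. Their median was 0.16 (all members -0.03), since 10 genes of the list were not called. Without the lower limit of the base mean in the fit 7 genes of the list were higher and 2 lower.

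The H19 RNA, a maternally expressed non-coding transcript at chr7:149761434-149764048 (mm9), read 227 and 220 in WT and 1399 and 1469 in KO4. It rose 6.39-fold (log2 fold change 2.68, SE 0.09, adjusted p = 2.17e-25), far beyond the spread of either pair. Its neighbour Igf2, a paternally expressed growth factor gene at chr7:149836673-149852721, read 317 and 265 in WT and 61.1 and 175 in KO4, a log2 fold change of -1.48 (SE 0.23, adjusted p = 3.50e-06). The KO4 libraries differed from each other in Igf2 but both lay below WT. KO8 was different at both genes. It read 74.5 and 89.1 for H19, below both WT libraries, and 254 and 262 for Igf2, and KO4 differed from KO8 by 4.12 for H19 (adjusted p = 8.89e-29) and by -1.31 for Igf2 (adjusted p = 0.000249).

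Usp29, a paternally expressed gene of the Peg3 domain at chr7:6913871-6916480 (mm9), read 51.3 and 60.9 in WT, 289 and 351 in KO4 and 58.4 and 61.7 in KO8. The increase over WT was 5.61-fold (log2 fold change 2.49, SE 0.17, adjusted p = 2.81e-14), and only the KO4 libraries were high. Peg3 itself, a zinc finger gene transcribed in the opposite direction, was above the range in which reads could be resolved. Its base means of 3872.6 with KO4 and 1255.8 with KO8 nevertheless set a limit: whatever the split among libraries, the KO4 mean was at least 2.01 times the WT mean, and it exceeded the KO8 mean by 5172 normalised reads. This was the only one of the 3982 genes with a base mean of 1000 or more for which the base means alone placed KO4 above WT. The window around the Usp29 start shares 263 of its 300 bases with that of Peg3 and is printed because the annotated starts of both genes lie in it (RefSeq, GRCm38.p6, chr7:6730333-6730632, plus strand, another build than the gene positions above). Capitals mark its 17 CpG dinucleotides, a number reached by 31.4% of all windows of this length.
Usp29 promoter window: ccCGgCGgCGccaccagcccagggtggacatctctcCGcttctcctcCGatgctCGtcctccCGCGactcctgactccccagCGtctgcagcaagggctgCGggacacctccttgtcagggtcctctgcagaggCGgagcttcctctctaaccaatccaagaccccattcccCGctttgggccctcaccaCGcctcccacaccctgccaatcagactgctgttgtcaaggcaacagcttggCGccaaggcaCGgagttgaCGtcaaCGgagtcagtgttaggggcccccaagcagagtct

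Magel2 and Ndn, paternally expressed genes of the Prader-Willi domain on chromosome 7, both rose. Magel2 read 52.3 and 50.9 in WT and 140 and 136 in KO4 (log2 fold change 1.41, adjusted p = 2.18e-06), and Ndn read 126 and 98.8 in WT and 177 and 234 in KO4 (0.86, adjusted p = 0.000216). Mkrn3 of the same domain was not called (-0.11). Plagl1, which encodes a zinc finger transcription factor, rose from 59.9 and 37.9 to 156 and 138 (1.60, adjusted p = 6.29e-07), and Sgce, next to Peg10 on chromosome 6, from 44.7 and 39.9 to 77.4 and 91.3 (0.98, adjusted p = 0.0039). In each of these 4 genes both KO4 libraries lay above both WT libraries, and Plagl1 and Sgce, with WT means of 48.9 and 42.3, passed the limit of 50 through KO4.

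A further group of paternally expressed genes sits inside introns of other genes. Nnat, within Blcap, read 82.7 and 93.8 in WT and 230 and 282 in KO4 (log2 fold change 1.52, adjusted p = 2.70e-09), and Blcap was not called (-0.12). Zrsr1, within Commd1, read 234 and 263 in WT and 478 and 432 in KO4 (0.87, adjusted p = 2.14e-07), and Commd1 was not called (0.04). Mcts2, within H13, read 259 and 272 in WT and 439 and 504 in KO4 (0.82, adjusted p = 4.19e-07), whereas H13 fell from 701 and 757 to 473 and 442 (-0.67, adjusted p = 3.25e-07). Whether strand was used in counting is not given in the sources used here, so reads of a gene and of its host could be mixed. KO4 was above KO8 for Nnat (1.13), Zrsr1 (1.06) and Mcts2 (0.79), and below it for H13 (-0.72), each with an adjusted p under the threshold. The other called members were Inpp5f (0.32), Slc22a18 (-0.82) and Trappc9 (-0.44). Dlk1 (0.43), Peg13 (0.18) and Ascl2 (-0.34) were not called. The count of higher genes was between 9 and 10 when single libraries were left out. Of the list members with a base mean of 1000 or more, Mest and Peg10 had mean levels higher in KO4 than in KO8 by 1480 and 9635 normalised reads, and Grb10 was lower by 2910. These differences follow from the base means without an error, and no test was possible.

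**Figure D3:**
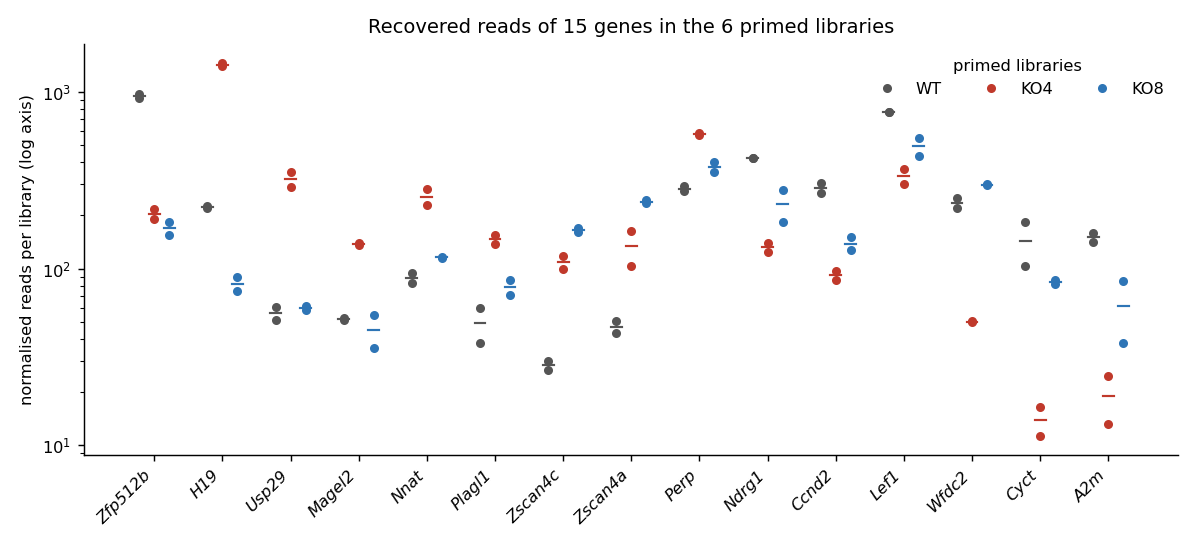
Normalised reads (vertical, log axis) of 15 genes in single primed libraries, with WT in grey, KO4 in red and KO8 in blue, and a short bar at the mean of 2 libraries. Zfp512b is low in both clones, H19, Usp29 and Magel2 are high in KO4 alone, the Zscan4 genes are highest in KO8, and Wfdc2 is low in KO4 alone.

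Several genes of the 2-cell-like state rose. Of 25 such genes in the table, 6 were tested members, 18 had base means under 50 and 1 had a base mean of 1000 or more. Among the 6 members 4 had a WT mean under 50 and passed the limit through the KO4 libraries, so their number and median are not read as a result. Zscan4c, Zscan4a, Zscan4d, Gm5662 and Usp17le were called higher and Calcoco2 was not called (0.03). The fit also held 8 of the genes with base means under 50. Of these 6 were higher, among them Zscan4f (19.0 and 20.0 against 63.1 and 85.1, log2 fold change 1.86), and 2 were not called. Arg2 and Usp17la, both called higher, lay under 10 in both WT libraries. They passed the limit of 10 in the fit through the KO4 libraries, so this count is not read as a result either. None of the 6 members lies on chromosome 8. Zscan4c, which encodes a nuclear protein of the 2-cell embryo, read 26.6 and 29.9 in WT, 99.8 and 118 in KO4 and 162 and 170 in KO8. Its log2 fold change was 1.91 (SE 0.26, adjusted p = 3.91e-07). Zscan4a rose from 50.4 and 42.9 to 103 and 164 (1.46, adjusted p = 6.64e-06), and Zscan4d from 44.7 and 60.9 to 115 and 168 (1.40, adjusted p = 7.19e-06). In all 3 genes KO8 was still higher than KO4, by 0.61, 0.87 and 0.62 on the log2 scale, each past the threshold. Gm5662 rose (1.25, adjusted p = 0.000367), and so did Usp17le, a member of a deubiquitinase family (29.5 and 26.9 against 53.9 and 93.4; 1.30, adjusted p = 0.00126), whose call was lost without KO4 library B (0.91). In bulk RNA a change in the number of such cells and a change in RNA per cell cannot be told apart.

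The Zscan4 genes are near-identical copies, and how reads matching several of them were assigned is not given in the sources used here, so the division of reads among them is uncertain. The windows around the starts of Zscan4c and Zscan4d (RefSeq, GRCm38.p6, chr7:11005495-11005794, plus strand, and chr7:11166099-11166398, minus strand) show how alike they are. At an offset of 11 bases 281 of 289 bases were identical (97.2%), and the 8 bases that differ are in capitals.
Zscan4c promoter window: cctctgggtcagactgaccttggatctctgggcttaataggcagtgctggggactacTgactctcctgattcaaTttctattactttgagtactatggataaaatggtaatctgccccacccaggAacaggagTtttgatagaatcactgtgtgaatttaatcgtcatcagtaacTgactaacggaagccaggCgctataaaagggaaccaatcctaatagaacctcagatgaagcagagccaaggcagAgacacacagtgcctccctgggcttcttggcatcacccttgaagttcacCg
Zscan4d promoter window: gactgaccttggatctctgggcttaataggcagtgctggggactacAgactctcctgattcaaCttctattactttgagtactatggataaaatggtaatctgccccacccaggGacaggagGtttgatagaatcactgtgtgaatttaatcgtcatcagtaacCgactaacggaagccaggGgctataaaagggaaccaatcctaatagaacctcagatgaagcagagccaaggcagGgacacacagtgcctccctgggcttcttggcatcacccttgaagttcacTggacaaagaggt

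Other genes among the 15 largest increases had no common list. Eif4a3l1, an Eif4a3-like gene, read 13.3 and 11.0 in WT, 64.1 and 114 in KO4 and 124 and 128 in KO8 (log2 fold change 2.72, SE 0.35, adjusted p = 1.13e-07). Its base mean of 50.6 passed the limit through the KO4 libraries, as did those of Cdkl4, Gm5039, Dock3, Cobll1 and Adcy7. Cdkl4, which encodes a CDKL family kinase, read 18.1 and 23.0 in WT and 98.7 and 76.9 in KO4 (2.04), and with 33.2 and 11.4 in KO8 it was higher in KO4 than in KO8 (2.10, adjusted p = 9.19e-05). Gm5039 (1.34) was, like the Zscan4 genes, higher in KO8 than in KO4. Dock3 (1.60), an activator of the Rac GTPase, Fam171b (1.35), Cobll1 (1.36) and, on chromosome 8, the adenylyl cyclase gene Adcy7 (1.46) rose and were not called between the clones. Among well-expressed genes off chromosome 8, 3 genes had the smallest p after H19 and Usp29. Car2, a carbonic anhydrase gene, read 672 and 651 in WT and 1327 and 1347 in KO4 (1.01, adjusted p = 4.58e-14), the protease gene Capn2 read 561 and 525 against 1097 and 1112 (1.02, adjusted p = 5.26e-13), and the ephrin receptor gene Epha4 read 511 and 525 against 1061 and 1057 (1.03, adjusted p = 5.64e-13).

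Among the tested genes, the largest decrease was seen in Cyct. Cyct, the testis form of cytochrome c (chr2:76191999-76198507), read 184 and 104 in WT, 11.2 and 16.4 in KO4 and 81.6 and 85.7 in KO8. It fell by 3.26 on the log2 scale (SE 0.31, adjusted p = 8.64e-11), and KO4 lay below KO8 as well (-2.54, adjusted p = 2.28e-06). A2m, which encodes a secreted protease inhibitor, read 159 and 142 in WT and 13.2 and 24.6 in KO4 (-2.98, SE 0.28, adjusted p = 8.16e-11). Wfdc2, for a small secreted protein with a whey acidic protein fold, read 220 and 253 in WT and 49.9 and 50.3 in KO4 (-2.21, adjusted p = 5.64e-12) but 300 and 297 in KO8. Hormad2, a meiotic chromosome axis gene, showed the same order, with 87.4 and 90.8 in WT, 25.4 and 25.6 in KO4 and 103 and 92.5 in KO8 (-1.76 against WT, -1.89 against KO8). Cyct, A2m and Hormad2, with KO4 means of 13.8, 18.9 and 25.5, passed the limit of 50 through the WT libraries.

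Further genes fell in KO4 and were intermediate or equally low in KO8. Oas1a, an interferon-induced sensor of double-stranded RNA, read 93.1 and 118 in WT, 25.4 and 24.6 in KO4 and 30.2 and 46.8 in KO8 (log2 fold change -2.02). Ccdc136, a coiled-coil protein gene, read 875 and 854 in WT, 259 and 272 in KO4 and 405 and 435 in KO8 (-1.70, adjusted p = 2.86e-17). Ephx2, encoding the soluble epoxide hydrolase (567 and 656 against 216 and 181; -1.62), Fxyd6, a regulator of the sodium pump (649 and 741 against 233 and 235; -1.56), and Cds1, an enzyme of phospholipid synthesis (475 and 428 against 130 and 163; -1.62), followed. Egfl6 (-1.71) and the glutathione transferase gene Gstp2 (-1.62) completed the set together with Ndufa4l2, Ndrg1 and Ccnd2, described with their groups. Oas1a and Egfl6, with KO4 means of 25.0 and 31.2, passed the lower limit of the base mean through the WT libraries.

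Glycolytic and hypoxia-response genes were lower. Of 13 tested genes of this list 8 fell (61.5%) and none rose, against 13.4% and 9.66% of all members, with a median log2 fold change of -0.40. Without Ankrd37, its gene on chromosome 8, 7 fell and the median was -0.33. A further 22 genes of the list had base means of 1000 or more and were not tested. Ndrg1, a gene known to respond to hypoxia, read 422 and 423 in WT, 139 and 124 in KO4 and 279 and 184 in KO8 (-1.68, SE 0.13, adjusted p = 7.73e-13), and KO4 lay below KO8 (-0.78, adjusted p = 0.00423). Hk1, a hexokinase of the first step of glycolysis, read 1092 and 1126 in WT and 616 and 653 in KO4 (-0.80, adjusted p = 1.02e-10). Aldoc, an aldolase gene, fell from 286 and 332 to 192 and 177 (-0.74), Pfkfb3, which makes the activator of phosphofructokinase, from 480 and 516 to 356 and 323 (-0.55), and Vegfa from 413 and 444 to 316 and 309 (-0.45). Pgm2 (-0.40) and P4ha1 (-0.26) also fell, while Eno2 (0.00), Eno3 (0.21), Pdk3 (0.02), Bpgm (0.00) and Pfkm (-0.17) did not pass the test. Outside the list, Ndufa4l2, a hypoxia-induced relative of a respiratory chain subunit, read 157 and 157 in WT and 39.7 and 26.7 in KO4. Its log2 fold change was -2.23 (adjusted p = 1.41e-09). Ndufa4l2, with a KO4 mean of 33.2, passed the lower limit of the base mean through the WT libraries. With single libraries left out, between 6 and 8 genes of the list fell.

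Promoter windows were searched for ACGTG on both strands, the core letters to which hypoxia-inducible factors are known to bind. All 7 of the lowered genes with a window in the RefSeq table held the letters in at least 1 window, compared with 9 of all 12 tested list genes with a window and 21.8% of all genes. Genes can have several windows, and a match is no more than these letters. The list was itself written to hold hypoxia-response genes, so its share cannot be read against that of all genes. Ndrg1 had no window, and a part of hypoxia-inducible factors in these values was not tested. The window of Ankrd37, an ankyrin repeat gene that read 153 and 136 in WT, 62.1 and 98.5 in KO4 and 166 and 144 in KO8 (-0.87, adjusted p = 0.00145), is printed with the 2 matches in capitals (GRCm38.p6, chr8:45999801-46000100, minus strand). The Ankrd37 call was lost without KO4 library A (-0.54).
Ankrd37 promoter window: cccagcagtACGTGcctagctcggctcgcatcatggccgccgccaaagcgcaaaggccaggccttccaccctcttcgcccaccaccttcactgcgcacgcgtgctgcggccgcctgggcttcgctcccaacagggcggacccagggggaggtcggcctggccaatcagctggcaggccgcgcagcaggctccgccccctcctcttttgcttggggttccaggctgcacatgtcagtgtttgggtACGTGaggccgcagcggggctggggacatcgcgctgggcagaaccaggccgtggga

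Of the p53 target list 8 of 19 tested genes were higher (42.1%) and 1 was lower (5.26%), beside 9.66% and 13.4% of all members, with a median of 0.22 and no gene on chromosome 8. Without the lower limit of the base mean in the fit 5 were higher. Perp, a membrane protein gene of p53-dependent cell death, read 295 and 273 in WT, 584 and 568 in KO4 and 354 and 400 in KO8 (1.02, SE 0.10, adjusted p = 6.37e-10). Plk2, a polo-like kinase gene, read 465 and 509 in WT, 744 and 778 in KO4 and 443 and 489 in KO8 (0.64, adjusted p = 4.54e-07). The BH3-only genes Pmaip1 (702 and 761 against 1003 and 1041; 0.48) and Bbc3 (678 and 723 against 922 and 929; 0.40) rose, as did Pidd1 (0.40), Phlda3 (0.39), Tnfrsf10b (0.27) and Apaf1 (0.23). KO4 was above KO8 in Perp (0.61), Plk2 (0.71), Pmaip1 (0.25), Bbc3 (0.43) and Phlda3 (0.30), each past the threshold. Cdkn1a, the cell cycle inhibitor most often used as a p53 readout, was not called (451 and 373 against 498 and 461; 0.22, adjusted p = 0.135). Rrm2b fell by 0.46, a call that was lost without WT library B (-0.27), without KO4 library B (-0.30) and under trimmed mean scaling.

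Pluripotency genes could be judged only in part, since 24 of 30 naïve genes and all 11 core genes had base means of 1000 or more. Of the 6 naïve genes tested 5 fell (83.3%), beside 13.4% of all members, with a median of -0.46. The number was 3 without WT library A, without KO4 library B or with trimmed mean scaling. Sox15, a Sox factor of mESCs, read 267 and 310 in WT, 121 and 131 in KO4 and 146 and 143 in KO8 (-1.18, adjusted p = 5.65e-08). Tbx3 fell from 892 and 926 to 632 and 578 (-0.59) and Prdm14 from 294 and 271 to 170 and 195 (-0.63). Among 9 tested formative and primed epiblast genes 3 rose (33.3%) and 2 fell (22.2%), beside 9.66% and 13.4% of all members. Off chromosome 8, 2 rose and 2 fell. Car2 (1.01), Lin28b (0.32) and, on chromosome 8, Sox1 (77.9 and 85.8 against 197 and 205; 1.29) were higher. Otx2, a transcription factor of the epiblast, fell from 1040 and 1138 to 699 and 684 (-0.65), and Lef1, a nuclear effector of Wnt signals, from 773 and 772 to 302 and 367 (-1.21, adjusted p = 1.84e-12), with 552 and 436 in KO8.

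Of 19 tested germline genes 7 fell (36.8%) and 1 rose (Ddx4, 0.54), beside 13.4% and 9.66% of all members, with a median of -0.19. Without the lower limit of the base mean in the fit 4 fell. Khdc3, a maternal factor of the oocyte, read 595 and 584 in WT and 278 and 266 in KO4 (-1.11, adjusted p = 6.87e-11), Mael, a piRNA pathway gene, 240 and 285 against 119 and 137 (-1.03), and Tex19.1, a retrotransposon regulator, 631 and 676 against 372 and 343 (-0.87). Tfap2c, also a marker of trophoblast, fell from 668 and 817 to 491 and 376 (-0.78). Khdc3, Tex19.1 and Tfap2c were lower in KO4 than in KO8. Fkbp6, a meiotic gene outside the lists, was not called against WT (-0.66, adjusted p = 0.0692) but was lower than in KO8 (-1.49), where it read 114 and 128.

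Among cell cycle genes, calls went in both directions. Of 20 tested genes of G1 and S control 5 rose (25.0%) and 1 fell (5.00%), beside 9.66% and 13.4% of all members, and only 1 rose without WT library B or without KO4 library A. The one that fell was Ccnd2, cyclin D2 (306 and 268 in WT, 86.5 and 96.4 in KO4, 150 and 127 in KO8; -1.64, adjusted p = 1.23e-10). E2f7, a repressor of the E2F family, rose by 0.38. In mitotic division 4 of 24 tested genes rose (16.7%) and 3 fell (12.5%) with a median of 0.02, and off chromosome 8, 2 rose and 3 fell. Without the lower limit of the base mean in the fit 0 rose and 1 fell, and the same held for G1 and S control and for DNA replication. The number that rose in mitotic division was 2 without KO4 library A and 6 with trimmed mean scaling. Pttg1, the securin that holds back separase, read 327 and 345 in WT and 166 and 223 in KO4 (-0.80), and Pkmyt1, a kinase that restrains CDK1, fell by 0.54. The remaining 90 genes of this list had base means of 1000 or more, so that most of it was not tested. In DNA replication 2 of 17 rose (11.8%), both on chromosome 8 (Gins2, 0.29, and Gins3, 0.45), with 1 left without WT library A. Mcm8 alone fell (5.88%, log2 fold change -0.58).

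The signalling lists stand beside 9.66% higher and 13.4% lower of all members. Wnt genes showed 1 higher (4.35%) and 4 lower (17.4%) of 23 tested, with a median of 0.08. Besides Lef1, Dkk3 (-1.09), a secreted Dickkopf family protein, Porcn (389 and 347 against 217 and 214; -0.77), the enzyme that acylates Wnt ligands, and Notum (-0.31) fell. Dkk3 and, named below, Id4 had KO4 means of 34.8 and 34.7 and passed the limit of 50 through the WT libraries. The Dkk3 call was lost without WT library A (-0.99). Genes of FGF and ERK feedback were higher in 6 and lower in 2 of 19 tested, and in 4 and 2 off chromosome 8. Fgf13 (54.2 and 49.9 against 102 and 112; 1.02) rose off chromosome 8, and the ERK phosphatase gene Dusp4 (336 and 334 against 519 and 513; 0.62) and Junb (0.62) rose on it. With trimmed mean scaling 10 genes of the list were higher, and without KO4 library B 4 were. In the TGF-beta, Nodal and BMP list 3 of 26 rose (11.5%), 2 of them off chromosome 8, and 2 fell (7.69%). Without single libraries 3 to 5 rose, and none fell without WT library B. Bmpr2 (0.51), a BMP receptor gene, rose, and Id4 (-1.05) fell, but not without WT library B (-0.94) or KO4 library B (-0.72).

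The next lists stand beside 9.66% higher and 13.4% lower of all members. Neurogenesis genes moved in both directions, with 8 of 36 tested higher and 8 lower (22.2% each) and a median of -0.05. Off chromosome 8 there were 6 higher and 8 lower, and without WT library B 4 were lower. Mapt, the tau gene, read 391 and 380 in WT and 136 and 146 in KO4 (-1.44, adjusted p = 4.03e-11), and Ncam1 (-0.99) and Map2 (-0.67) fell, while Epha4, Gli3 (0.81) and L1cam (0.82) rose together with Sox1 and Efnb2 (0.74) on chromosome 8. Extracellular matrix and adhesion genes were higher in 6 and lower in 7 of 36 tested (3 and 7 off chromosome 8), with 3 and 3 left without WT library B. Loxl2, a collagen cross-linking enzyme, read 259 and 320 in WT and 109 and 97.5 in KO4 (-1.47), Fbln1, a matrix glycoprotein gene, fell from 1050 and 1067 to 637 and 586 (-0.79), and Ccn2, a matricellular protein gene, rose from 240 and 261 to 450 and 402 (0.76). In the interferon list 1 of 12 rose (Ifit2, 0.96, lost without WT library B or KO4 library A). The 2 that fell were Oas1a and Irf1 (1041 and 1047 against 637 and 589, log2 fold change -0.77). Ifit2, with a WT mean of 39.3, passed the lower limit of the base mean through the KO4 libraries, and Oas1a passed it through WT.

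Of 14 tested genes in the list around Zfp512b on chromosome 2, which counts Zfp512b itself, 1 was higher. It was Uckl1 (0.38), whose call was lost whichever library was left out. The 2 lower genes were Zfp512b and Ppdpf (1025 and 1005 against 790 and 796, log2 fold change -0.36). The list had a median of 0.18 in KO4 and 0.03 in KO8, beside -0.03 over all members in KO4. Of the NuRD, Polycomb and DNA methylation genes 1 of 21 tested rose (Tet3, 0.42, lost without WT library B) and 5 fell, Zfp512b among them, with a median of -0.03, and 3 fell without WT library B. The counts of both lists include Zfp512b, the targeted gene, and stand beside 9.66% higher and 13.4% lower of all members. Of the 2 Y-linked genes called, Uty was higher (0.53) and Eif2s3y lower (-0.73) in KO4, and Eif2s3y (410 and 394) was also lower in KO4 than in KO8 (819 and 793, adjusted p = 8.69e-11).

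The other lists are given by their counts, beside 9.66% higher and 13.4% lower of all members. They were 3 higher and 2 lower of 16 in RNA degradation, 0 and 5 of 15 in the TCA cycle and oxidative phosphorylation, 0 and 3 of 11 in amino acid and one-carbon metabolism, 3 and 4 of 14 in sterol and lipid synthesis, 2 and 1 of 11 in germ layer genes, 2 and 3 of 13 in heat shock and the unfolded protein response, and 0 and 1 of 1 in ribosomal proteins, of which 76 had base means of 1000 or more. Off chromosome 8 the counts were 2 and 2 in RNA degradation, 0 and 1 in germ layer genes, whose higher members Col4a1 and Sox1 lie on it, and 1 and 3 in heat shock. In the TCA cycle list Atp5e, an ATP synthase subunit gene, fell from 582 and 554 to 303 and 373 (-0.75), and 1 gene fell without WT library B or without KO4 library A. In RNA degradation 1 gene rose without WT library A, and none fell without WT library B or without KO4 library A. In amino acid metabolism none fell without WT library B. Among sterol genes Hmgcs1 read 341 and 889 in KO4 and 847 and 305 in KO8 against 341 and 303 in WT, and its call (0.77) was lost without KO4 library B (0.08), where no gene of the list rose. The reads of Hmgcs1 were 1 of 5 sets found only when replicates were allowed to differ widely. Without WT library B 1 sterol gene fell.

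**Figure D4:**
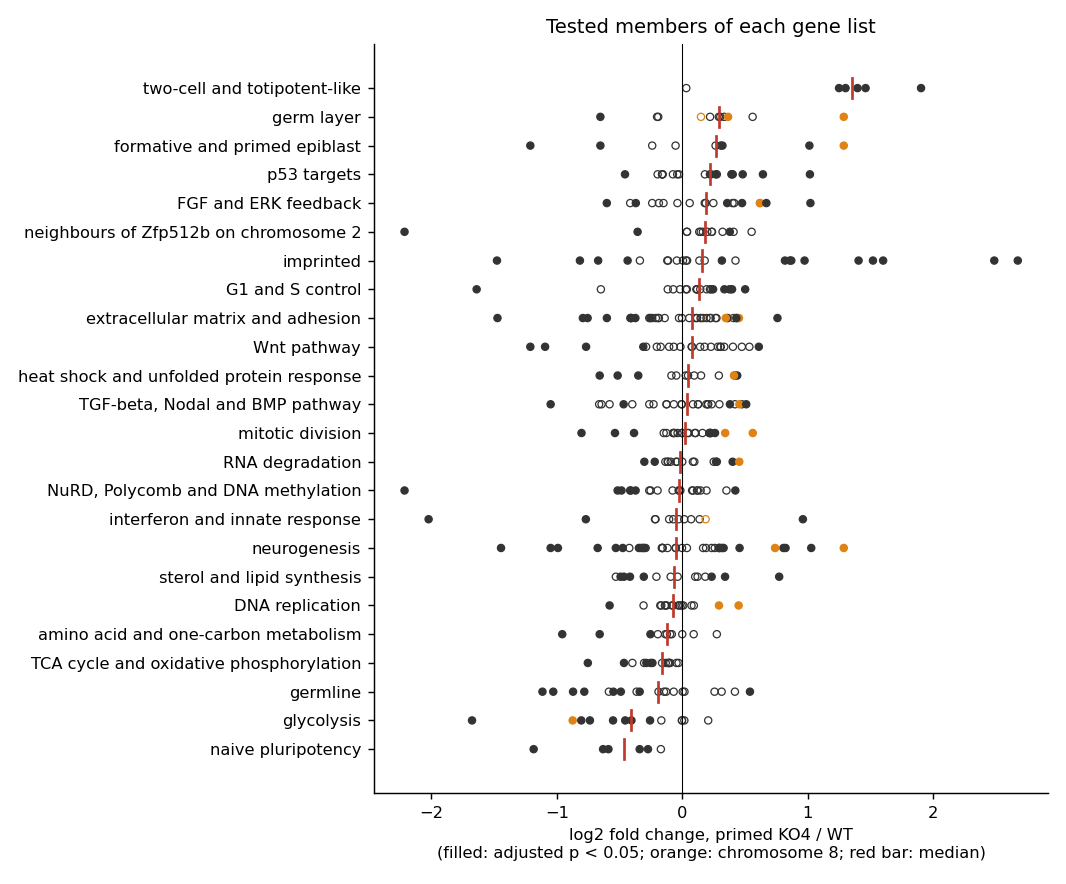
Log2 fold change of primed KO4 over WT (horizontal axis) of the tested members of 24 gene lists (vertical axis), with filled circles for called genes, open circles for others, orange for chromosome 8 and a red bar at the median. The medians of naïve pluripotency (-0.46) and glycolysis (-0.40) are lowest, and that of the 2-cell list, highest, rests on genes of which 4 passed the limit of 50 through KO4.

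Markers of other cell types differed in level. Lamb1 and Sparc (endoderm), Tubb3 and Stmn2 (neural) and Pecam1 (endothelium) had base means of 1000 or more and are not in the sums. Summed over the markers below a base mean of 1000, feeder fibroblast genes read 223 and 241 in WT and 165 and 170 in KO4, mesoderm genes 116 and 99.8 against 96.7 and 142, and cardiac and muscle genes 315 and 273 against 232 and 265. Trophoblast genes read 995 and 1130 in WT and 755 and 671 in KO4, with Tpbpa and Prl3d1 at 0 in every library and Tfap2c making up most of the sum. Neural genes, with Sox1 of chromosome 8 among them, read 1076 and 1022 against 1266 and 1271, endoderm genes read 1573 and 1598 against 1558 and 1789, and blood and endothelial genes 321 and 285 against 286 and 266. The part of such cells in the results above was not tested.

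The direct test of KO4 against KO8, with no WT library in its fit, called 85 of the 9220 genes fitted higher (0.922%) and 180 lower (1.95%) in KO4. Its genes were chosen by the base mean of WT and KO4, and KO8 was scaled to KO4 through the WT libraries. Among the members 79 were higher and 157 lower. These became 2 and 3 without the lower limit of the base mean in the fit, and 47 to 60 and 75 to 124 without single libraries. Since the comparisons of each clone with WT share the WT libraries (KO8 had 7.8% of the fitted genes higher and 8.07% lower), only this direct test was used for the difference. The 5 members highest in KO4 over KO8 were H19, Usp29, Cdkl4, Magel2 (35.3 and 54.8 in KO8; 1.63) and Sytl1, which read 78.4 and 87.2 in KO4, 27.2 and 46.8 in KO8 and 96.9 and 82.8 in WT. Of these Sytl1, a gene of vesicle transport, was not called between KO4 and WT (-0.12, adjusted p = 0.76). The 5 lowest were Wfdc2, Cyct, Hormad2, A2m (-1.59) and Fkbp6.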

How the data were processed

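RNA-seq reads of all samples had been handled by the authors with Trim Galore 0.6.7, HISAT2 2.2 on mm9, featureCounts and DESeq2 1.46.0, per the labels and the study's methods. Trimming options and the strand setting of counting are not given in the sources used here. The 8 deposited tables held, per gene, a base mean and the authors' comparison columns (log2 fold change, its error, test statistic and p-values), which were not used. The base mean, a signal value, was made by the authors as the mean over 4 libraries of reads divided by the library's size factor, and it was deposited with 10 significant digits. Tables of primed cells were used here (KO4 with WT and KO8 with WT, which share the WT libraries), and no table of counts was used.

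From the pair of base means of a gene, the 6 whole read numbers were solved by search, with size factors read from the steps of 1 read in the lowest base means. The search limited how far replicates of a group could differ, more widely where no solution was found (5 genes). A gene was kept where only 1 solution was found, which was possible below a base mean of 1000. With the base means shifted so that no true solution exists, at most 2.64% of genes gave one, and the KO4 table alone gave the same reads wherever it had 1 solution below a base mean of 100. The libraries of a group carry no replicate number and are named A and B by size factor. In simulated data with the sizes of the real libraries all recovered reads were right, and the steps from reads to calls found 60.0% of genes changed by 0.5 and 87.8% of those changed by 1 on the log2 scale. The simulation changed 200 of 9169 genes, at a fixed variance over mean and with no shift of a chromosome. In the real fit 736 genes were called higher and 1061 lower, so these shares need not hold there. Between replicates of the real libraries the variance over mean was 1.9 to 2.5. Of 841 genes with reads in a single library, 305 had 1 read and 461 had 2. Whether the mates of a read pair were counted singly was not tested, so this spread cannot be compared with counting noise. Depth was 16.8 to 18.2 M reads in WT and KO4, with 2 libraries per group.

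Normalised reads were tested on the scale of log2(value + 1) with limma 3.58.1 (lmFit and eBayes with trend, R 4.3.3), 2 WT and 2 KO4 libraries in the fit, for 9220 genes with a base mean of 10 to 1000, with Benjamini-Hochberg adjustment and a threshold of 0.05. KO4 and KO8 were tested in a fit of their own. No count test was used, because the deposited values were base means and not counts. Alternatives were other scaling, filters, pseudocounts, voom weights, a fit of all 6 libraries, and single libraries or chromosome 8 left out. Positions come from GENCODE M1 (mm9), found by symbol for 20202 and by synonym for 2342 of 25209 genes, and promoter windows from RefSeq (GRCm38.p6). The named genes were the 15 largest changes each way, the 5 smallest p-values each way on and off chromosome 8, the 5 most different from KO8 each way and up to 4 genes per list. Other list members were named to account for their list after their values were seen. The genes, lists and tests were chosen with earlier results of these data known. Software was Python 3.11.15 with numpy 2.4.6, pandas 2.3.3, numba 0.67.0 and matplotlib 3.10.9.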

Additional observations from a re-analysis of the deposited data

Results flagged for a closer look

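For these genes the difference between the KO clones, tested directly with no WT library in the fit, passed the threshold in limma. Each was also called between KO4 and WT. Values are log2 differences of KO4 over KO8, and a negative value means that KO4 was lower.

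Among these genes, the imprinted ones raised over WT in KO4 were H19 at 4.12, Usp29 at 2.39, Magel2 at 1.63, Nnat at 1.13 and Plagl1 at 0.91. Cdkl4 differed by 2.10, Capn2 by 0.29, and the p53 targets Plk2, Perp and Pmaip1 by 0.71, 0.61 and 0.25. The genes of the 2-cell-like state went the other way, with Zscan4a at -0.87, Zscan4d at -0.62, Zscan4c at -0.61, and Gm5039 at -1.004, outside that list. In these genes both clones lay above WT, and KO8 was higher.

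Among genes lowered in KO4, Wfdc2 differed by -2.55 and Cyct by -2.54. Hormad2 followed at -1.89, A2m at -1.59 and Ndufa4l2 at -1.24. Smaller differences were seen in Gstp2 (-0.91), Ndrg1 (-0.78) and Ccdc136 (-0.66). On chromosome 8, where most genes were raised in both clones, Gm21283 (-1.06), Ankrd37 (-0.97) and Plekha2 (-0.66) were lower in KO4 than in KO8.

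Peg3 lies outside the tested range. The lowest ratio of KO4 over WT that its base means allow is 2.01, which has no error and no test.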

How the results depend on the processing

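No paired analysis was possible because the recovered libraries carry no replicate numbers. Of the counts of 669 higher and 926 lower genes, those moved by over 1.5 times came from leaving out WT library B (443 and 516), from dropping the filter on the base mean (217 and 268), from leaving out chromosome 8 (439 higher) and from asking for a log2 change of 0.5 (292 and 460) or 1 (44 and 79). Without single libraries the ranges were 443 to 522 higher and 516 to 778 lower, lowest in both without WT library B. The 79 higher and 157 lower genes against KO8 became 2 and 3 without the filter, 37 and 82 at 0.5, 9 and 18 at 1, and 47 to 60 and 75 to 124 without single libraries, lowest without KO8 library B (higher) and KO8 library A (lower). The cause was not tested, other than that chromosome 8 and the size limits take genes away by construction. No gene was called in the opposite direction under any setting. The shift of chromosome 8 was 0.42 to 0.44 and Zfp512b was called at -2.12 to -2.31 throughout. Of 121 named genes 45 lost their call without the filter, 13 to 22 without single libraries, 5 with trimmed means and 2 with total reads, and Fkbp6 gained a call with all 6 libraries. Each group had 2 libraries, KO4 is 1 clone, and genes with a base mean of 1000 or more had no test. How depth limits the counts was not tested.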

Other observations

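Further imprinted genes were described and not tested. Among those with a base mean of 1000 or more, Zdbf2 had a mean level 1009 normalised reads higher in KO4 than in KO8, and Impact 1473 higher, while Gnas was 1378 lower. For Nap1l4 and Phlda2 the differences were 0.299 and 85.6. These values follow from the base means of both tables and carry no error.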
